A study of Rattus norvegicus with 4 samples.

Results

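Ligand-gated ion channels open a pore when a transmitter binds, and the genes for their subunits are described here in the frontal cortex of neonatal rats exposed to bisphenol A (BPA) before birth. Genes were taken by symbol, as the ionotropic glutamate receptor subunits (Gria, Grik, Grid, Grin), the GABA-A receptor subunits (Gabr), the glycine receptor subunits (Glra, Glrb), the nicotinic acetylcholine receptor subunits (Chrn) and the 5-HT3 serotonin receptor subunits (Htr3). The symbols matched 54 of the 14008 rows with an NCBI Gene ID, out of 17419 rows in all. Of the 54 rows, 53 were subunits, while 1 only shared the letters, encodes no subunit and is left out. The subunits were 4 AMPA, 5 kainate, 2 delta, 7 NMDA, 18 GABA-A, 3 glycine, 13 nicotinic and 1 5-HT3 gene. RefSeq lists 7 further matching genes (Chrna10, Chrna9, Chrnd, Gabrp, Glra1, Glra4, Htr3b), which had no row in these data.

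Dams, labelled Wistar but named Wistar Furth in the methods, received BPA by oral gavage at 5000 µg/kg of body weight each day from gestational day 1 until birth, or the vehicle, ethanol in corn oil. The control group thus shared the gavage and the ethanol, and none of the 4 libraries came from a group without vehicle. The pups were labelled postnatal day 1, and the 4 libraries, 1 for each sex and treatment, came from control males, BPA males, control females and BPA females. Each sex therefore gave 1 library against 1, without a replicate check, and although the methods describe several pups per sex and treatment from independent litters, whether a library pooled them is not stated. With the sexes taken as 2 replicates of a treatment, p-values measured the spread between libraries that also differed in sex, and an exact permutation test of 2 libraries against 2 could not go below a two-sided p of 0.333.

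In the mature brain, glutamate opens the AMPA, kainate and NMDA channels and excites neurons, whereas GABA and glycine open chloride channels and mostly inhibit them. Around birth the subunit composition of many of these receptors is still immature: NMDA receptors hold mostly the Grin2b subunit and Grin2a comes later, GABA-A receptors are rich in the Gabra2, Gabra3 and Gabra5 subunits, and cortical glycine receptors contain Glra2. GABA itself can depolarize immature neurons, because the chloride exporter encoded by Slc12a5 appears late. The nicotinic channels in the cortex are built mainly from Chrna4 with Chrnb2, or from Chrna7 alone, and the 5-HT3 channel of the cortex is found in a class of interneurons.

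Levels are given as FPKM (fragments adjusted for transcript length and library depth), which allows levels to be compared between genes. The deposited values have 2 decimals and the lowest is 0.01, which stands for no fragment. The libraries held an estimated 8940000 to 9237500 fragments each. Near 1 FPKM, the fragments behind a value depend on transcript length: there were 113 to 197 for Grin2a, whose transcript is long, but 32, 6, 17 and 13 for Chrna3 in control males, BPA males, control females and BPA females, while Grin2b rested on 3473 to 4866 fragments. Differences are given as the log2 ratio, log2(BPA + 0.5) minus log2(control + 0.5), in males and in females, which understates the change of scarce genes. The 37 subunits listed in all 4 libraries with a mean of at least 1 FPKM entered the test. The other 16 comprised 13 with a mean under 1 FPKM and 3 (Chrna6, Chrng, Gabra6) listed in the female libraries only.

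The tissue carried the markers of cortex, with Neurod6 and Tbr1 at 61.28 to 255.27 FPKM in every library. Of the 5 markers of cortical projection neurons with a row, limma called 2, in opposite directions, against 0.562% of all rows. Neurod2, a transcription factor, was at 45.76 and 45.38 FPKM in the controls and at 61.95 and 67.45 FPKM with BPA in males and females (adjusted p = 0.0481 by limma). Slc17a7, a vesicular glutamate transporter, was at 51.08 and 56.97 FPKM in the control males and females and with BPA at 0.587 and 0.565 times these levels (adjusted p = 0.0274 by limma). The libraries of the treatments also differed in markers of other tissue. The counts below stand beside the rows with a Gene ID and a mean of at least 1 FPKM. Of these rows, 33.4% were lower and 19.0% higher in both BPA libraries. All 7 markers of meninges and vessel wall were lower in both BPA libraries, their summed level being 436.4 and 572.3 FPKM in the control and 198.8 and 134.9 FPKM in the BPA males and females, although the meninges had been removed at dissection. Of 8 markers of striatal projection neurons, 7 were higher in both BPA libraries, with summed levels of 86.31 and 88.87 FPKM in the controls and 116.0 and 126.7 FPKM with BPA in males and females. Cdhr1, a marker of olfactory bulb projection neurons, stood at 41.1 and 44.48 FPKM in the controls and at 10.77 and 9.29 FPKM with BPA. The 4 markers of astrocytes and radial glia were lower in both BPA libraries, with sums of 667.0 and 657.4 against 562.2 and 481.2 FPKM. Of 4 microglia markers 3 were lower in both BPA libraries, with sums of 25.66 and 26.3 FPKM in the controls and 22.44 and 16.38 FPKM with BPA, and of 5 markers of the oligodendrocyte lineage 3 were lower. Limma called 5 of the 7 markers of meninges and vessel wall, 1 of the 8 striatal markers and Cdhr1. It called 0 of the astrocyte, microglia and oligodendrocyte markers. When only rows with a Gene ID were fitted, 4.49% were called. Among them were Cdhr1, 7 meningeal, 3 striatal, 3 astrocyte, 2 cortical and 1 oligodendrocyte marker, and 2 GABA neuron markers (Gad1 and Dlx1, both lower). Markers of cerebellum, hindbrain and choroid plexus were near the lowest value. The part of these tissue differences in the subunit results below was not tested, and in bulk tissue fewer cells of a type cannot be told apart from less RNA per cell.

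No subunit passed the test across all transcripts. In limma, fitted over 13163 rows, 74 rows (0.562%) had an adjusted p under 0.05, of which 0 were among the 37 subunits, and the lowest adjusted p of a subunit was 0.076, for Glrb. At an unadjusted p under 0.05, limma listed 11 of the 37 subunits, 9 lower and 2 higher with BPA, against 17.3% of all rows. This count fell to 5 without the control female library and to 6 without the BPA male library, when 1421 and 1809 of the 13163 rows were listed, and it was 7 without a trend in the prior variance, when 2055 rows were. When the fit was restricted to the 10632 rows with a Gene ID, 477 (4.49%) were called, and 2 subunits among them, Gabra2 (adjusted p = 0.0177 by limma) and Glrb (adjusted p = 0.0192 by limma), both lower with BPA.

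Without a test, both BPA libraries lay below both control libraries for 17 of the 37 subunits and above them for 7, and 13 overlapped. Of all 10632 known genes, meaning rows with a Gene ID and a mean of at least 1 FPKM, 33.4% lay below and 19.0% above. After scaling the libraries to a common median ratio, 15 subunits lay below and 7 above, and the known genes were at 26.9% and 26.7%. The split of the known genes also moved with level. From 1 to 3 FPKM, 44.5% of known genes lay below and 8.18% above, and of the 7 subunits at that level 2 lay below and 2 above. From 3 to 10 FPKM, 38.1% lay below and 13.3% above, and of the 10 subunits there 5 lay below and 2 above. Of known genes from 10 to 30 FPKM, 31.3% lay below and 22.6% above, and of the 11 subunits at that level 7 lay below and 3 above. From 30 to 100 FPKM, 26.2% lay below and 26.1% above, and of the 9 subunits there 3 lay below and 0 above. The median log2 ratio of the 37 subunits was -0.14 in males and -0.07 in females, against -0.037 and -0.046 over the known genes. The sign was the same in both sexes for 30 of the 37 subunits. Across the 37 subunits, Pearson's r between male and female ratios was 0.536 and Spearman's rho 0.596, against 0.512 and 0.467 across the known genes. These correlations are across genes, which are not independent replicates.

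**Figure D1:**
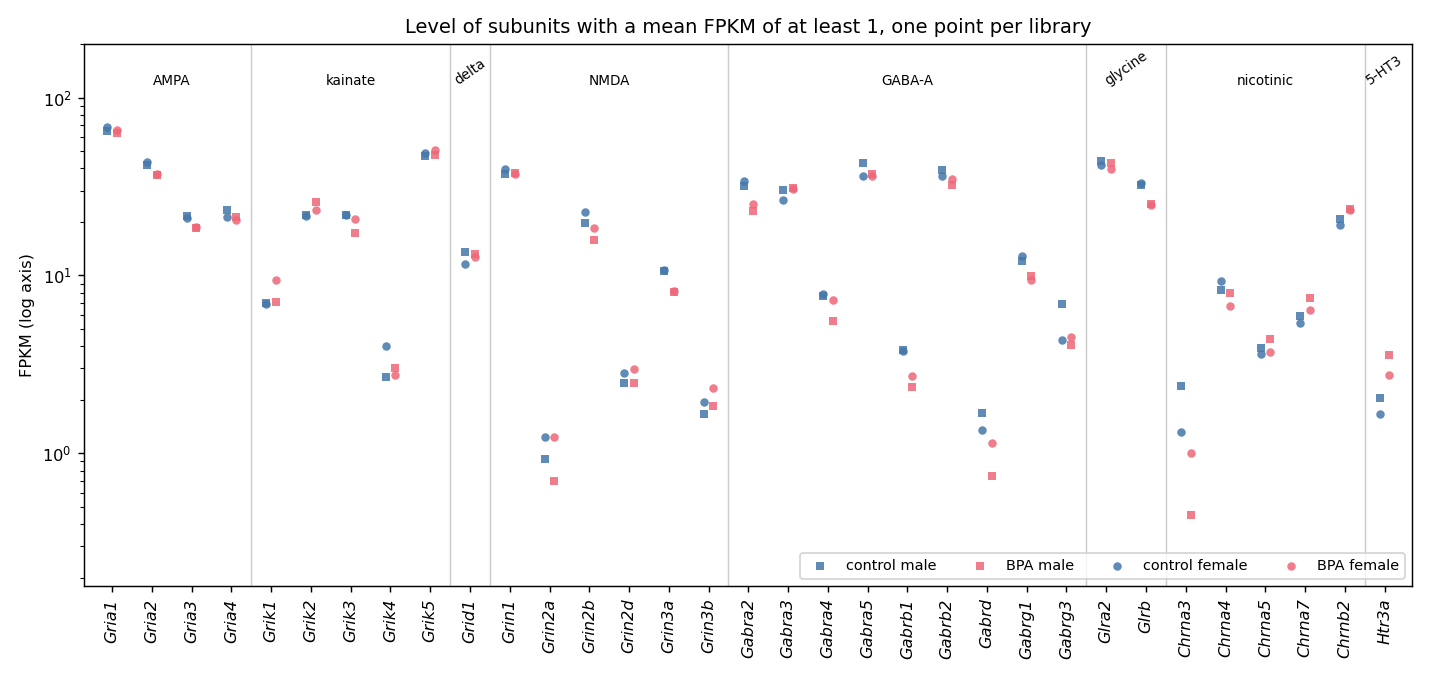
FPKM (log axis) of 33 subunits with a mean of at least 1 FPKM, grouped by receptor family, with 1 point per library (blue control, red BPA, squares males, circles females). The points span from Chrna3 at 0.45 FPKM in the BPA male library to Gria1 at 68.04 FPKM in the control female library, and for Gabra2, Glrb and Grin3a both red points lie below both blue points.

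The inhibitory receptors held the subunits with the lowest p-values, and they are described first. The 18 GABA-A subunit genes together reached 315.2 and 293.6 FPKM in the control males and females and 265.8 and 274.7 FPKM in the BPA libraries, and made up 37.7% to 40.6% of the summed FPKM of all subunits. Of the 12 GABA-A subunits tested, 8 were lower in both BPA libraries, 1 was higher and 3 overlapped, against 33.4% of known genes lower and 19.0% higher, and their median log2 ratio was -0.27 in males and -0.14 in females.

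Gabra2, an alpha subunit that forms part of the GABA and benzodiazepine binding sites, stood at 31.86 FPKM in control males and 33.83 in control females, and at 23.13 in BPA males and 25.28 in BPA females. Both BPA libraries were below both controls, at 0.726 times the control level in males and 0.747 times in females. The limma log2 difference was -0.43 (SE 0.078, n = 2 libraries per treatment, adjusted p = 0.0837). The 95% counting interval of the log2 ratio of levels, which covers counting error only, was -0.57 to -0.35 in males, and in females it was -0.52 to -0.32.

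Gabra3, another alpha subunit of the immature cortex, lay at 30.37 and 26.42 FPKM in control males and females and at 31.21 and 30.42 FPKM in the BPA libraries. It was the only tested GABA-A subunit with both BPA libraries above both controls, with log2 ratios of 0.04 in males and 0.2 in females and an adjusted p of 0.512 by limma, and its male counting interval, -0.10 to 0.18, included no change. Gabra5, the alpha subunit of many extrasynaptic receptors, was at 42.63 and 36.02 FPKM in the controls and at 37.17 and 36.0 FPKM with BPA, so the libraries overlapped.

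The share of each alpha subunit in the summed FPKM of Gabra2, Gabra3, Gabra4 and Gabra5 compares these subunits within a library. Gabra2 made up 28.3% and 32.5% of the set in control males and females and 23.8% and 25.5% in the BPA males and females. Gabra3 made up 27.0% and 25.4% in the controls and 32.2% and 30.7% with BPA. Gabra2 thus had the larger share of the pair in both controls and the smaller share in both BPA libraries. Gabra5 had the largest share in all 4 libraries, from 34.6% to 38.3%, and Gabra4 the smallest, from 5.73% to 7.58%.

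The beta subunits carry the other face of the GABA binding site. Gabrb2 was at 39.02 and 36.07 FPKM in the control males and females and at 32.12 and 34.9 FPKM in the BPA libraries, lower in both (adjusted p = 0.336 by limma). Its counting interval in females, -0.13 to 0.04, included no change, and its libraries overlapped after scaling to a common median ratio. Gabrb1 was at 3.79 and 3.74 FPKM in the controls and at 2.37 and 2.72 FPKM with BPA, lower in both sexes, with a limma log2 difference of -0.49 (SE 0.174, adjusted p = 0.238). The counting interval of Gabrb1 was -1.28 to -0.09 in males, and in females it was -1.04 to 0.11, the female one including no change.

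The gamma subunits help to place receptors at synapses. Gabrg1 was at 12.05 and 12.79 FPKM in the controls and at 9.93 and 9.41 FPKM with BPA, with a limma log2 difference of -0.35 (SE 0.0947, adjusted p = 0.171). It was lower in both BPA libraries, but its counting interval in males, from -0.60 to 0.04, included no change. Gabrg3 differed from it, with 6.92 FPKM in the control male library and 4.07, 4.32 and 4.51 FPKM in the BPA male, control female and BPA female libraries, so that 1 library was high and the other 3 lay close together. Its limma log2 difference was -0.32 with all libraries and -0.01 without the control male library. Gabrd, the delta subunit of extrasynaptic receptors, was at 1.68 and 1.35 FPKM in the controls and at 0.75 and 1.15 FPKM with BPA, on 12 to 27 fragments a library, and its female counting interval, -1.22 to 0.75, included no change.

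Many GABA-A subunit genes lie side by side in the genome, and the neighbours were compared by cluster. In GRCr8, the assembly of the RefSeq table, Gabrb1, Gabra4, Gabra2 and Gabrg1 follow each other on chromosome 14. Cox7b2, which had no row, lies between Gabra4 and Gabra2. All 4 subunits were lower in both BPA libraries, against 33.4% of the known genes. In males and females, the log2 ratios were -0.58 and -0.40 for Gabrb1 and -0.44 and -0.11 for Gabra4. They were -0.45 and -0.41 for Gabra2 and -0.27 and -0.42 for Gabrg1. The female counting interval of Gabra4, -0.49 to 0.26, included no change. Of the flanking genes, Commd8 was at 0.17 and -0.14, with overlapping libraries, and Gnpda2 at -0.20 and -0.28, lower in both. On chromosome 1, the neighbours Gabrg3 and Gabra5 each overlapped between treatments and each had a negative log2 ratio in males, of -0.70 and -0.20, but ratios of 0.06 and 0.00 in females. Lower values were not confined to chromosome 14: Gabrb2, in a cluster on chromosome 10, had log2 ratios of -0.28 and -0.05. These clusters were examined after the values had been seen.

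**Figure D2:**
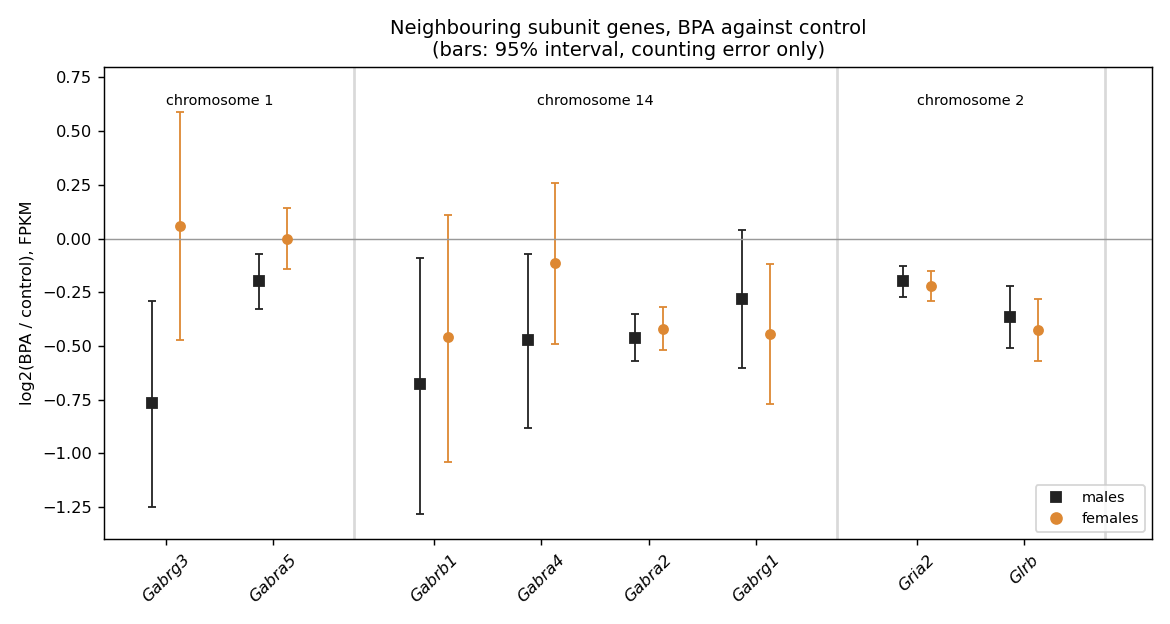
Log2 of the ratio of BPA to control FPKM for neighbouring subunit genes with a mean of at least 1 FPKM, by chromosome (black squares males, orange circles females). Only clusters that hold a GABA-A gene other than Gabrr, or Glrb, were drawn, so Chrna5 and Chrna3 on chromosome 8 are not shown. Bars are 95% intervals of counting error only. All points of the chromosome 14 group lie below 0, and the female points of the chromosome 1 group lie close to it, with intervals that include 0.

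No promoter was available for Gabra2 of the chromosome 14 group, whose subunits were lower together. Promoters are printed for Gabrb1, Gabra4 and Gabrg1 from that group, and for Glrb and Grin3a, lower by a like amount in both sexes. They are the 250 bases before the transcript start, from RefSeq on GRCr8, read 5′ to 3′ along the gene, with capitals at matches to the GC box (GGGCGG), the CCAAT box (CCAAT) or the TATA box (TATAAA) on either strand. The windows were chr14:36902894-36903143 on the minus strand for Gabrb1, chr14:36944497-36944746 on the plus strand for Gabra4, chr14:37750042-37750291 on the plus strand for Gabrg1, chr2:168505615-168505864 on the minus strand for Glrb and chr5:69001559-69001808 on the minus strand for Grin3a.
Gabrb1: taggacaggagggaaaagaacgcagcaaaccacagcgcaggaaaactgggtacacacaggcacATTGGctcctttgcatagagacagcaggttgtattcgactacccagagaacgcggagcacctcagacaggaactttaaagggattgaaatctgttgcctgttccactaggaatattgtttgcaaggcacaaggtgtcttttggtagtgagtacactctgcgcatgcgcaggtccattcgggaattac
Gabra4: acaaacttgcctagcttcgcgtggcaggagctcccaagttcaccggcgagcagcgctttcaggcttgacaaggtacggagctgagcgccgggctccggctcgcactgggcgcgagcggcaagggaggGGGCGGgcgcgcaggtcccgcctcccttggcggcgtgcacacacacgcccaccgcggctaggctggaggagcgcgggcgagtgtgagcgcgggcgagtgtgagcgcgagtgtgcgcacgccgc
Gabrg1: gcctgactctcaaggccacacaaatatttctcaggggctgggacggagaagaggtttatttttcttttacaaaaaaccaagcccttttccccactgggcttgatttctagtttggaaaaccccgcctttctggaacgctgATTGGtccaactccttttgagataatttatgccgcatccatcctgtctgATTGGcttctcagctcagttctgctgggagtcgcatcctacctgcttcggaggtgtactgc
Glrb: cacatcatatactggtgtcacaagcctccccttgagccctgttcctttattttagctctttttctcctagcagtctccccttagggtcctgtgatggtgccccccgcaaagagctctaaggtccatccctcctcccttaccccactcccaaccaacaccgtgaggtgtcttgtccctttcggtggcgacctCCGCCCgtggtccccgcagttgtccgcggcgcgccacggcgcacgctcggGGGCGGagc
Grin3a: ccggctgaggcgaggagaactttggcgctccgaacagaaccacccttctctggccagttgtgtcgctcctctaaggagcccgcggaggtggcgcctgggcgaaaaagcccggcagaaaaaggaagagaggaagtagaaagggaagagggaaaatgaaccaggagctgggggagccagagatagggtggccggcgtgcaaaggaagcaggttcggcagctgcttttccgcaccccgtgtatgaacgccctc

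The windows differed in base composition, also between neighbouring genes. The Gabra4 window was 71.6% GC with 33 CpG dinucleotides and held 1 GC box, while the Gabrg1 window was 48.4% GC with 6 CpG and held 2 CCAAT boxes. The Gabrb1 window, at 49.2% GC, held 1 CCAAT box. The Glrb window held 2 GC boxes, and the Grin3a window held none of the 3 motifs. Over the 37 subunits with a promoter in the table, 48.6% held a GC box, 35.1% a CCAAT box and 10.8% a TATA box, against 30.5%, 34.0% and 12.9% of all 33469 promoters of that length. These matches describe letters in the window and not binding.

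Glrb, the beta subunit of the glycine receptor, which binds gephyrin at the synapse, was lower in both BPA libraries. It was at 32.39 FPKM in control males and 33.19 in control females, and at 25.13 and 24.73 FPKM in the BPA males and females. Both BPA libraries lay below both controls by more than the 2 libraries of either treatment lay apart. The limma log2 difference was -0.39 (SE 0.0656, adjusted p = 0.076), and the counting interval was -0.51 to -0.22 in males, and in females it was -0.57 to -0.28. Glra2, the alpha subunit of fetal and neonatal receptors, was at 44.09 and 41.73 FPKM in the controls and at 43.09 and 39.52 FPKM with BPA, with overlapping libraries (limma log2 difference -0.06, SE 0.0724, adjusted p = 0.731).

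Glra2 was the more abundant of the pair throughout. The ratio of Glra2 to Glrb was 1.36 and 1.26 in the control males and females and 1.71 and 1.60 in the BPA libraries. Glrb thereby made up 42.2% and 44.0% of the summed glycine receptor FPKM in the controls and 36.7% and 38.2% with BPA. Glra3 was scarce, at 0.23 to 0.56 FPKM. Next to Glrb in GRCr8 lies Gria2, an AMPA subunit, and it too was lower in both BPA libraries, as given below.

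**Figure D3:**
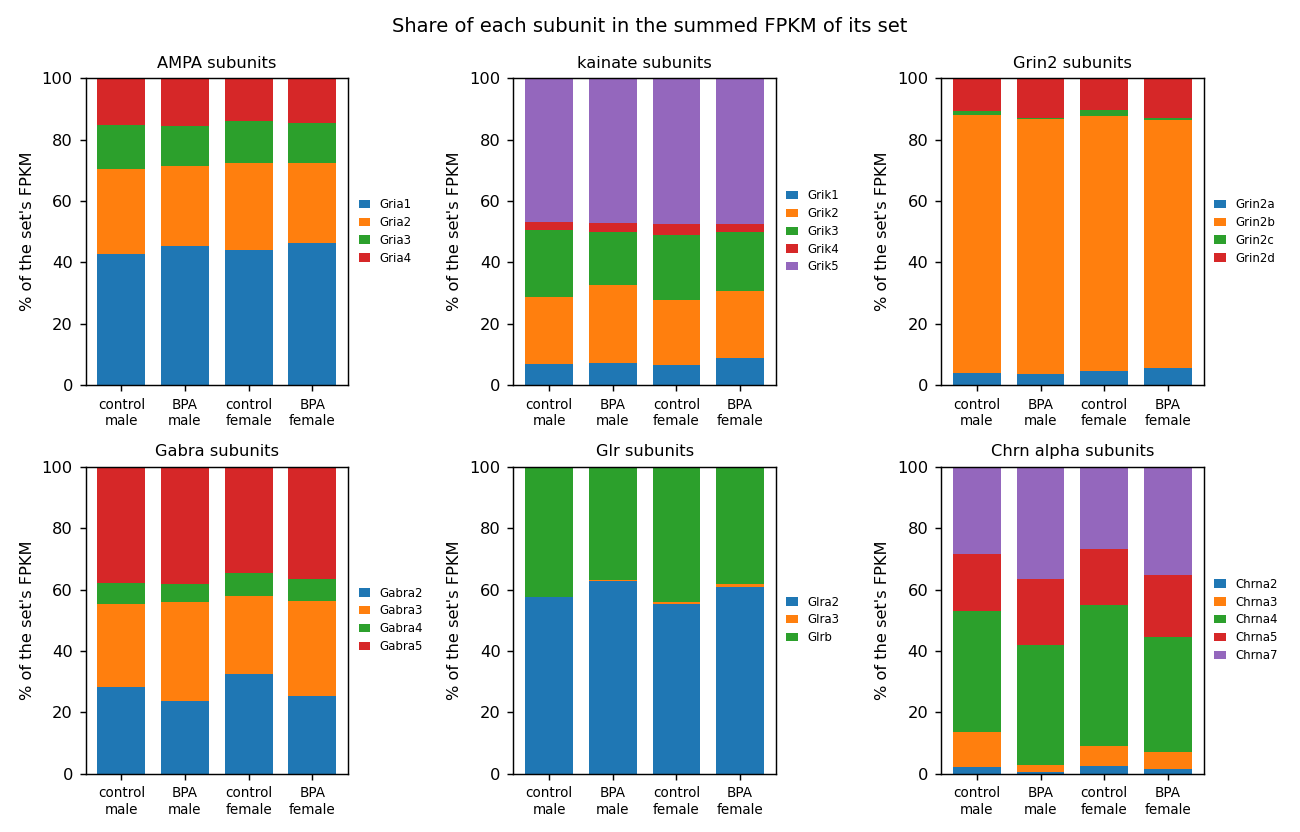
Share of each subunit in the summed FPKM of its set, in percent, as stacked bars for the 4 libraries. In the Gabra panel the Gabra2 segment is smaller and the Gabra3 segment larger in both BPA bars than in both control bars, and in the Glr panel Glrb takes 36.7% and 38.2% in the BPA bars against 42.2% and 44.0% in the control bars.

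The AMPA receptors carry most fast excitation. Gria1 was the most abundant glutamate receptor subunit, at 65.13 and 68.04 FPKM in the control males and females and at 63.08 and 65.92 FPKM with BPA. The libraries of Gria1 overlapped, with a log2 ratio of -0.05 in each sex. Gria2, the subunit whose edited pore makes the channel impermeable to calcium, was at 41.84 and 43.39 FPKM in the controls and at 36.54 and 37.17 FPKM with BPA, lower in both, with a limma log2 difference of -0.21 (SE 0.062, adjusted p = 0.193). Its counting interval was -0.27 to -0.13 in males, and in females it was -0.29 to -0.15.

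Gria3 and Gria4, the remaining AMPA subunits, were also lower in both BPA libraries, Gria3 with log2 ratios of -0.22 and -0.17 and Gria4 with -0.12 and -0.07 in males and females. The counting intervals of Gria4 included no change, at -0.28 to 0.04 in males and -0.24 to 0.09 in females, and after scaling its libraries overlapped. The ratio of Gria1 to Gria2 was 1.56 and 1.57 in the controls and 1.73 and 1.77 in the BPA libraries. This ratio differed more between treatments than between the sexes of a treatment.

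NMDA receptors pair the obligatory Grin1 subunit with Grin2 or Grin3 subunits. Grin1 was at 37.0 and 39.42 FPKM in the controls and at 37.54 and 37.24 FPKM with BPA, without a common direction. Grin2b, the Grin2 subunit of the immature forebrain, was at 19.73 and 22.62 FPKM in the control males and females and at 15.73 and 18.5 FPKM with BPA. Within each sex BPA was lower, at 0.797 times the control level in males and 0.818 times in females, while the female library was above the male one in both treatments. The limma log2 difference of Grin2b was -0.30 (SE 0.112, adjusted p = 0.254), and it was -0.19 without the BPA male and -0.20 without the control female library.

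The other NMDA subunits were scarcer. Grin2a, which rises after birth, was at 0.93 and 1.23 FPKM in the controls and at 0.7 and 1.24 FPKM with BPA, and Grin2d, an early subunit of interneurons, at 2.48 and 2.83 FPKM in the controls and at 2.48 and 2.98 FPKM with BPA. Neither had both BPA libraries on 1 side of the controls. Grin2b accounted for 81.1% to 84.2% of the summed Grin2 FPKM in every library, and Grin2d for 10.6% and 10.4% in the controls and 13.1% in each BPA library. Grin2c, an adult cerebellar subunit, was at 0.28 and 0.49 FPKM in the controls and at 0.05 and 0.1 FPKM with BPA, which corresponds to 11 and 19 against 2 and 4 fragments. Its counting interval was -5.66 to -0.25 in males, and in females it was -4.27 to -0.67, and at this level it did not enter the limma fit.

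Grin3a, a subunit of young neurons that lowers calcium entry, was at 10.56 and 10.78 FPKM in the control males and females and at 8.08 and 8.16 FPKM with BPA. The 2 libraries of each treatment were close together and the treatments apart. The limma log2 difference was -0.37 (SE 0.0961, adjusted p = 0.154), and the counting interval was -0.60 to -0.17 in males, and in females it was -0.62 to -0.18. An assembled transcript that the annotation also assigns to Grin3a, when added, gave log2 ratios of -0.31 in males and -0.40 in females. Grin3b, the other member of the pair, was at 1.67 to 2.32 FPKM and overlapped, and shares its locus with Tmem259, whose reads may not be separable because the strand of counting is not stated. The same limit holds for Grin1 with Lrrc26 and for Grin2d with Grwd1.

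The kainate receptors as a family did not share a direction. Grik5, a high-affinity subunit that needs a partner to form a channel, was the most abundant, at 46.71 and 49.0 FPKM in the controls and at 47.55 and 50.75 FPKM with BPA, with overlapping libraries. Grik2, which can form channels by itself, had log2 ratios of 0.24 and 0.10 and was higher in both BPA libraries, and Grik3 had -0.32 and -0.08 and was lower in both. The female counting interval of each included no change, at -0.03 to 0.24 for Grik2 and -0.24 to 0.08 for Grik3. Grik1 was at 6.99 and 6.93 FPKM in the controls and at 7.11 and 9.44 FPKM with BPA, so that the BPA female library was high and the other 3 lay close together. Grik4 was at 2.7 and 4.02 FPKM in the controls and at 3.02 and 2.74 FPKM with BPA, with the control female library high.

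The delta receptors bind cerebellin proteins at synapses rather than opening to glutamate. Grid1 was at 13.55 and 11.53 FPKM in the controls and at 13.18 and 12.65 FPKM with BPA, without a common direction. Adding 2 assembled transcripts assigned to Grid1 changed its log2 ratios from -0.04 and 0.13 to -0.13 and -0.07, so its direction in females depends on which rows are counted.

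**Figure D4:**
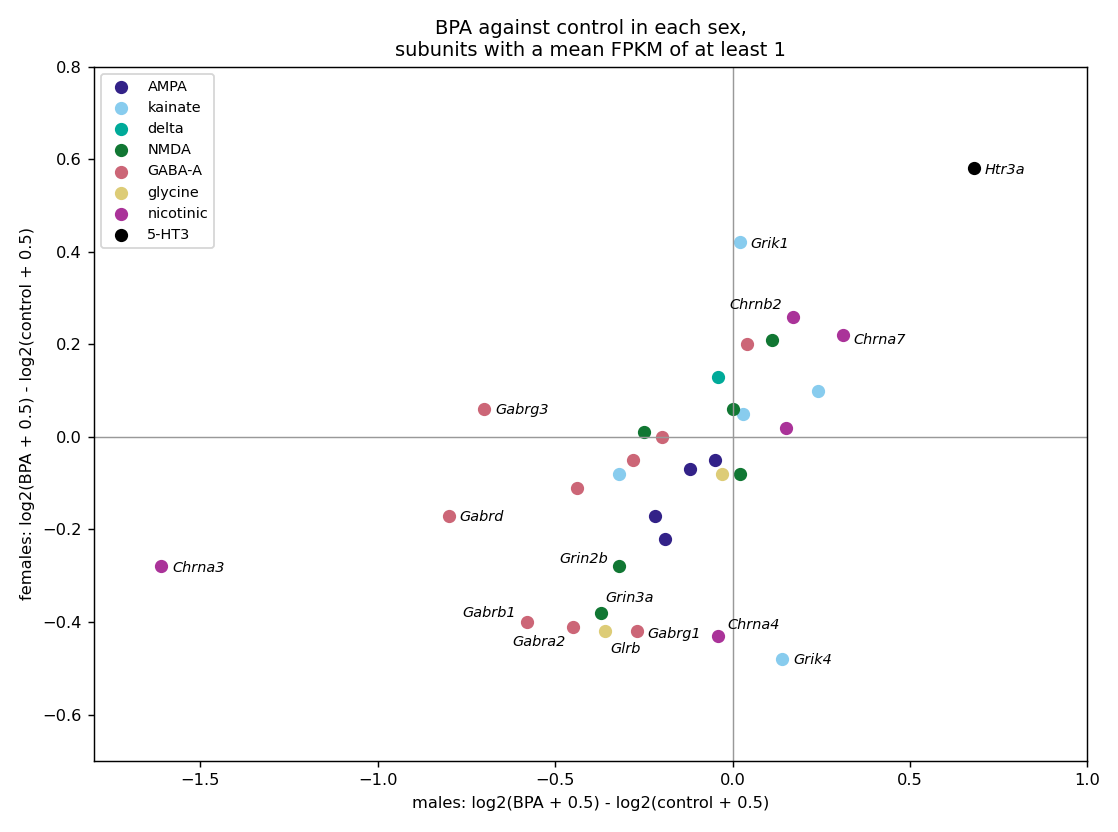
Log2 ratio of BPA to control in males (horizontal axis) and females (vertical axis) for 33 subunits with a mean of at least 1 FPKM, coloured by family. Htr3a stands alone at the upper right, with 0.68 and 0.58, Chrna3 at the far left, with -1.61 and -0.28, and Gabrb1, Gabra2, Glrb, Grin3a and Gabrg1 lie together at the lower left.

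Among the nicotinic subunits, 2 of the 5 tested were higher in both BPA libraries and 2 were lower, against 19.0% and 33.4% of the known genes. Chrnb2, the beta subunit of most cortical nicotinic receptors, was at 20.86 and 19.31 FPKM in the control males and females and at 23.51 and 23.27 FPKM with BPA. It had a limma log2 difference of 0.22 (SE 0.0764, adjusted p = 0.236). Chrna7, which forms channels permeable to calcium, was at 5.9 and 5.4 FPKM in the controls and at 7.44 and 6.37 FPKM with BPA, higher in both (limma log2 difference 0.27, SE 0.134, adjusted p = 0.361, and a difference of 0.16 without the BPA male library). Its male counting interval was -0.11 to 0.78 and its female one -0.24 to 0.72, and both included no change, as did that of Chrnb2 in males, from -0.02 to 0.37.

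Chrna4, the usual partner of Chrnb2, did not follow it. It was at 8.23 and 9.26 FPKM in the controls and at 7.98 and 6.76 FPKM with BPA, lower in both, with a counting interval from -0.38 to 0.28 in males that included no change. The ratio of Chrnb2 to Chrna4 was 2.53 and 2.09 in the controls and 2.95 and 3.44 in the BPA libraries. Chrna7 made up 28.2% and 26.9% of the summed FPKM of Chrna2, Chrna3, Chrna4, Chrna5 and Chrna7 in the controls and 36.5% and 35.1% with BPA.

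Chrna3, an alpha subunit typical of ganglia and of a few brain nuclei, had the lowest log2 ratio of the 37 subunits in males. It was at 2.4 FPKM in control males, 0.45 in BPA males, 1.32 in control females and 1.0 in BPA females, lower with BPA in both sexes. The limma log2 difference was -0.94 (SE 0.391, adjusted p = 0.29), and without the control male or the BPA male library it was -0.61 or -0.62. Its counting interval in females ran from -1.56 to 0.73 and included no change. Its neighbours in the cluster on chromosome 8, Chrna5 and Chrnb4, did not share the direction, with log2 ratios of 0.15 and 0.02 for Chrna5 and 0.40 and 0.00 for Chrnb4, the latter on 1 to 6 fragments.

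Htr3a, the only 5-HT3 subunit analysed here, was the subunit with the highest log2 ratio in each sex among the 37. It was at 2.06 and 1.67 FPKM in the control males and females and at 3.59 and 2.75 FPKM with BPA, on 29 to 64 fragments. Both BPA libraries lay above both controls, 1.74 times in males and 1.65 times in females by the ratio of levels. The limma log2 difference was 0.63 (SE 0.224, adjusted p = 0.238), and the counting interval was 0.19 to 1.43 in males, and in females it was 0.03 to 1.44. The summed level of 6 markers of GABA neurons was lower with BPA, at 119.7 and 118.3 FPKM in the controls and 108.1 and 107.0 FPKM with BPA. Of the 6, 2 were lower in both BPA libraries, 2 higher and 2 overlapping. Of the known genes, 33.4% were lower and 19.0% higher.

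Counted 1 library against 1, 7 of 50 subunits in males had a log2 ratio of 0.5 or more in size downward and 2 upward. Of the 13496 rows with a Gene ID listed in males, without a filter on level, 7.38% and 2.37% did. The 7 were Chrna3, Gabrd, Gabrq, Gabrg3, Chrna2, Gabrb1 and Grin2c, and the 2 were Htr3a and Chrna1. In females 2 of 53 subunits reached this ratio downward, Grin2c and Chrnb3, and 1 upward, Htr3a. Of the 13545 rows with a Gene ID listed in females, 10.9% and 2.24% did. Only Grin2c and Htr3a reached 0.5 the same way in both sexes, 2 of 50 subunits. Of the 13033 rows with a Gene ID listed in all 4 libraries, 4.04% did. For comparison, the female library was set against the male library of the same treatment. They differed by 0.5 or more in 4 of 50 subunits in the controls (5.69% of these 13033 rows) and in 5 of 50 with BPA (6.46%).

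The 16 subunits below the test's level were near the limit of detection. Gabrr1, Gabrr2, Gabrr3, Chrna1, Chrna6, Chrng and Gabra6 were each listed at 0.01 FPKM in at least 1 library and at no more than 0.37 FPKM in any. Chrna1, the muscle subunit, was listed at 0.01 FPKM in both controls and at 0.24 and 0.12 FPKM in BPA males and females, on 4 and 2 fragments. Gabre, Gabrq, Chrna2, Chrnb1, Chrnb3, Chrnb4, Chrne, Glra3 and Grin2c stayed between 0.04 and 0.67 FPKM. At this depth, no difference of these genes other than that of Grin2c had a counting interval that left out no change in both sexes.

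The proteins that bind and traffic these receptors were listed by pathway, and limma, fitted over all rows, called 0 genes of each list. In the fit restricted to rows with a Gene ID, where 4.49% of rows were called, it called 3 of the 37 pathway genes tested, Cnih2 (adjusted p = 0.0245 by limma), Nsf (adjusted p = 0.049 by limma) and Slc12a5 (adjusted p = 0.0451 by limma). At an unadjusted p under 0.05, limma listed 14 of the 37 pathway genes tested, 11 lower and 3 higher, against 17.3% of all rows, and the genes named here were chosen after their values were seen. Of 8 AMPA auxiliary proteins tested, 5 were lower in both BPA libraries and 3 were higher, the known genes being at 33.4% and 19.0%. Cnih2, a cornichon protein that slows AMPA receptor closing, was at 205.96 and 211.3 FPKM in the controls and at 262.43 and 253.71 FPKM with BPA (limma log2 difference 0.31, SE 0.0554, adjusted p = 0.084). Cacng8, a transmembrane AMPA receptor regulatory protein, was at 20.28 and 20.34 FPKM in the controls and at 15.32 and 18.48 FPKM with BPA. Of 11 scaffolds and traffic proteins of glutamate receptors, 4 were lower, 3 higher and 4 overlapped, with Nsf at -0.32 and -0.25 and Dlg4, the main postsynaptic scaffold, at 0.03 and -0.09.

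Of 9 scaffold, assembly and chloride transport genes of inhibitory synapses, 4 were lower in both BPA libraries, 1 was higher and 4 overlapped, a split near that of the known genes (33.4% lower and 19.0% higher). Gphn, which encodes gephyrin, the scaffold that holds glycine and GABA-A receptors, was at 25.04 and 25.49 FPKM in the controls and at 22.07 and 21.13 FPKM with BPA (limma log2 difference -0.22, SE 0.0707, adjusted p = 0.21). Slc12a5, the chloride exporter, was at 16.41 and 18.08 FPKM in the controls and at 11.15 and 13.49 FPKM with BPA (limma log2 difference -0.47, SE 0.117, adjusted p = 0.144). Slc12a2, the chloride importer of immature neurons, was at 6.97 and 8.42 FPKM in the controls and at 8.37 and 8.07 FPKM with BPA and overlapped.

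The remaining lists were small, and their counts stand beside the same shares of known genes, 33.4% lower and 19.0% higher. Of 3 cerebellins, the ligands of delta receptors, Cbln2 and Cbln4 were lower in both BPA libraries and Cbln1 overlapped. Cbln4 was at 1.37 and 2.05 FPKM in the controls and at 0.65 and 0.74 FPKM with BPA. Of 2 kainate auxiliary proteins, Neto1 was higher in both BPA libraries and Neto2 overlapped. Of 4 nicotinic chaperones and modulators, Lynx1 and Lypd1, which dampen nicotinic receptors, were lower in both, Ly6h was higher and Ric3, a chaperone of Chrna7, overlapped.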

How the data were processed

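RNA of neonatal rat frontal cortex was measured in 4 libraries, 1 per sex and treatment. The authors selected polyadenylated RNA, sequenced it on an Illumina HiSeq instrument, mapped reads to Rnor_6.0 (rn6) with Bowtie 2 and calculated FPKM with RSEM. HISAT is also named in the submitters' processing notes. Versions were not stated. The deposited FPKM values are normalized for length and depth, with 2 decimals and 0.01 as the lowest value, and the deposited transcript length stands beside them. The files hold no counts.

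The subunits, gene lists and comparisons were chosen with earlier results of these data known. Named subunits were the most abundant of each family, those with a log2 ratio of 0.5 or more in size and the same sign in both sexes, the 3 highest and 3 lowest mean ratios, the 3 largest sex differences and subunits of known developmental switches. All other genes named were chosen after their values were seen. A planned display of protein segments was not made. Some genes, 4 of the 37 subunits tested among them, are not reported here by name and are not drawn, though counts and sums over the subunits include them. Shares of alpha subunits were taken over the alpha subunits named.

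Depth was recovered from the rounding of scarce rows: a total was sought that turns their FPKM into whole fragments, given a transcript length shortened by 60 bases. At the best total, 76.5% to 78.5% of 1223 to 1377 scarce rows came within 0.1 of a whole number. Treatments were compared with limma 3.58.1 (R 4.3.3) on log2(FPKM + 0.5), for rows listed in all 4 libraries with a mean of at least 1 FPKM, with treatment as the only term, a trend in the prior variance, 2 residual degrees of freedom and Benjamini-Hochberg adjustment over all rows. Within a sex, 95% intervals of the ratio of 2 libraries came from an exact conditional binomial test on estimated fragments. They cover counting error only and compare libraries, not conditions. Depth recovery and the limma fit were tested on simulated data. The changes planted for limma were 2 in size on the log2 scale. They were larger than the limma differences of the subunits, so smaller changes were not covered. RefSeq (GRCr8) matched all 54 rows by Gene ID and gave neighbouring genes and promoters. Other steps used Python 3.11.15, numpy 2.4.6, pandas 2.3.3, scipy 1.17.1 and matplotlib 3.10.9. Alternatives were other pseudocounts, filters, scaling, a block for sex, rows with a Gene ID alone, and leaving out each library.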

Additional observations from a re-analysis of the deposited data

Results flagged for a closer look

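The difference of the log2 ratios between the sexes was tested with counting error alone and adjusted over 13715 rows. The test called 1273 of these rows, and 2 of 37 subunits. For Gabrb2, 1 of the 2, the effect differed between the sexes by this test. The female minus male difference of the log2 ratios of BPA to control was 0.23 (adjusted p = 0.00384 from estimated fragments), with 39.02 and 32.12 FPKM in the control and BPA males and 36.07 and 34.9 FPKM in the control and BPA females. With 1 library per sex and treatment, this compares 4 libraries and holds no spread between animals.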

How the results depend on the processing

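The number of subunits called by limma stayed at 0 with a pseudocount of 0.1 or 1, without a filter, with sex as a block, after median scaling, without a trend and without each library in turn. It was 2 with a mean of at least 5 FPKM and 2 with known genes alone, in each case Gabra2 and Glrb, and both of these fits tested fewer rows and called 164 of 9095 and 477 of 10632 of them. Of the 24 subunits whose limma difference was compared across alternatives, at most 12 per gene, 17 kept their sign under each. The sign of the other 13 tested subunits was not compared. Grin1 moved from -0.03 to 0.01 on the log2 scale after median scaling.

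Without each library in turn, the log2 difference ranged from -0.22 to 0.02 for Gabra5, from -0.12 to 0.01 for Glra2, from -0.07 to 0.16 for Grid1, from -0.01 to 0.08 for Grik5, from -0.08 to 0.01 for Grin1, from -0.39 to 0.15 for Grin2a and from -0.08 to 0.14 for Grin2d.

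Subunits with a log2 ratio of 0.5 or more numbered 9 in males, 5 with a pseudocount of 1, 5 with a mean of at least 1 FPKM and 1 at a threshold of 1. In females they numbered 3, 14 with a pseudocount of 0.1, 0 with a pseudocount of 1, 1 with a mean of at least 1 FPKM and 0 at a threshold of 1. Ratios of scarce subunits depend on the pseudocount by construction, and a higher threshold leaves fewer subunits. Both BPA libraries were lower for 17 and higher for 7 of 37 subunits, and for 15 and 7 of 37 after median scaling. The known genes were at 33.4% and 19.0%, and at 26.9% and 26.7% after scaling. The subunit counts were 14 and 5 of 26 with a mean of at least 5 FPKM and 22 and 9 of 50 without a filter. Shares of known genes, which moved with level, were not computed for these filters or without each library. Without each library in turn, 19 to 22 of 37 were lower and 8 to 11 higher, with 11 higher without the BPA male or the control female library, and fewer libraries overlap less by construction. The threshold of 1 and the leaving out of libraries for these counts were added after seeing the data. Depth limits statements on subunits under 1 FPKM. The labels number no replicates, and the libraries were paired by sex alone: with sex as a block, 86 rows and 0 subunits were called.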

Other observations

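Some subunits stood apart between the sexes within a treatment, 1 library against 1. In the controls, the female minus male log2 ratio reached 0.5 in size for Chrna3 (-0.67) and Gabrg3 (-0.62), which were higher in the male library, and for the scarce Chrnb1 (0.54) and Chrnb3 (0.57). With BPA it did so for Chrna3 (0.66), Grin2a (0.54) and the scarce Gabrq (0.57), Glra3 (0.52) and Chrnb4 (-0.73). Chrna3 was thus higher in the male library in the controls and higher in the female library with BPA, at 2.4 and 1.32 FPKM in the control male and female and 0.45 and 1.0 FPKM in the BPA male and female. The difference between the sexes in its response to BPA, tested with counting error alone, had an adjusted p of 0.117 from estimated fragments. Grin2b, the most deeply covered NMDA subunit, was higher in the female library in both treatments, by 0.19 in the controls and 0.23 with BPA on the log2 scale.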
